A study of Caenorhabditis elegans with 8 samples.

Results

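The 7 genes described here encode proteins with which the sperm of the nematode Caenorhabditis elegans recognises, fuses with and activates the egg. They were chosen by their sequence names: spe-9 (C17D12.6), spe-36 (F40F11.4), spe-38 (Y52B11A.1), trp-3 (K01A11.4, also named spe-41), fer-1 (F43G9.6), spe-10 (AC3.10) and spe-11 (F48C1.7). All 7 were found among the 21774 genes of the deposited table. Polyadenylated RNA had been sequenced from sperm, oocytes, 1-cell embryos and 2-cell embryos, with 2 libraries in each of the 4 groups, to follow the transition from oocyte to embryo. The labels give the strain TX189(OMA-1::GFP) and 24 degrees for all 8 libraries. The protocol differs from that label: it describes sperm from dissected males of a fog-2(q71) background, filtered and then activated with Pronase, and oocytes picked by mouth pipette from wild-type N2 hermaphrodites. A cell sorter was used to collect the 1-cell embryos, and the collection of 2-cell embryos is not described in the sources used here. Strain and collection method therefore cannot be told apart from stage. Nothing says that the 2 libraries of a group came from separate cultures, so the p-values cover the spread between these libraries, which may be technical.

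Worm sperm has no flagellum and no acrosome. It crawls on a pseudopod after activation, when membranous organelles fuse with the cell surface and expose proteins stored in them, and it then meets the oocyte in the spermatheca. Mutants in spe-9 and several other genes of this kind make sperm that move and reach the oocyte but do not fertilize it. The genes fer-1 and spe-10 differ from that description in acting on the membranous organelles before contact, and spe-11 in acting in the egg after sperm entry.

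The values are RPKM, read numbers that the authors scaled to gene length and library size, so levels can be set side by side between genes. The table gives no counts. Rough depths, from the commonest value of a single read among low genes, were 2.04e+07 and 7.08e+07 reads for the sperm libraries and 1.78e+07 to 3.55e+07 reads for the embryo libraries. No depth was derived for the oocyte columns, whose depth is taken as unknown. In the oocyte libraries 2.48% and 2.93% of genes were listed at 0, against 12.7% to 29.4% in the other libraries, and comparisons with oocytes carry any difference in how those columns were made. Comparisons of sperm with embryos use the oocyte libraries in the shared estimate of spread and in the filter on low values, and not in the difference itself. Some markers of other cells were present in the sperm libraries. Of 15 muscle, intestine and neuron genes, 12 were tested. Of these, 10 were higher and 2 lower in sperm than in oocytes, beside 36.7% and 24.6% of all genes tested. With quantile normalization 9 were higher. Of the 15 genes, 12 and 13 reached 1 RPKM in the sperm libraries, and 3 to 6 did so in any one oocyte or embryo library. Many of the higher calls, that of unc-54 among them, were thus built in by the filter, and their count supports nothing. The summed level of the 15 genes was 2231 and 3220 RPKM in sperm and 416 to 495 RPKM in oocytes. The muscle myosin gene unc-54 had 240.0 and 215 RPKM in sperm, against 0.176 and 0.0855 RPKM in oocytes. The lower genes were the neuron markers unc-119 and snb-1, and snb-1, with 90.3 and 102 RPKM in sperm and 462 and 379 RPKM in oocytes, made up most of the oocyte sum. The intestine genes ges-1 (0.668 and 0.513 RPKM) and elt-2 (0.618 and 0.391 RPKM) stayed under 1 RPKM in sperm, while cpr-1, another intestine gene, had 213 and 25.7 RPKM. All of these genes were named after their values were seen. The part of male body RNA in the sperm values below was not tested. Of 12 oocyte markers all 12 were lower in sperm than in oocytes, as were 12 of 14 genes of the oocyte side of fertilization, beside the 24.6% of all genes. The 2 lists share genes, cpg-1 and cpg-2 among them, so the counts are not separate. The other 2 of the 14, perm-2 and perm-4, were not called and went the other way (log2 2.29 and 2.18, limma adjusted p = 0.0604 and 0.113). Both were named after their values were seen. In bulk RNA, fewer cells of a type and less RNA per cell cannot be told apart.

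Of the 7 transcripts, 6 were far higher in sperm than in the other stages, and spe-36 was not. All of the 6 but spe-11 passed the filter on low values only through the sperm libraries. Among the 21774 genes, 1632 others reached 10 RPKM in each sperm library and stayed under 1 RPKM in each oocyte library. In sperm the group means ran from 14.1 ± 9.66 RPKM for spe-38 to 599.7 ± 390.1 RPKM for spe-11 (SD, n = 2). In oocytes those 6 transcripts stayed at or under 0.41 RPKM, and in embryos at or under 4.92 RPKM. The transcript of spe-36 averaged 17.99 ± 5.07 RPKM in sperm, 3.52 ± 0.0918 RPKM in oocytes, 44.2 ± 40.1 RPKM in 1-cell embryos and 59.75 ± 50.2 RPKM in 2-cell embryos (SD, n = 2 each). As listed, these are not the values of a transcript found mainly in sperm. Its embryo libraries differed widely between replicates, and the part of reads from overlapping neighbours in its values was not tested. By mean level in sperm the order was spe-11, trp-3, spe-10, fer-1, spe-9, spe-36 and spe-38. In this order spe-10 and fer-1 overlapped between libraries, as did spe-36 and spe-38, and the other neighbours did not. In 1-cell embryos the order was spe-36, spe-11, trp-3, spe-38, spe-10, fer-1 and spe-9, and there trp-3 overlapped spe-38, spe-38 overlapped spe-10, and spe-10 overlapped fer-1. In oocytes spe-36 and trp-3 came first, and the other 5 genes, at or under 0.0726 RPKM, each overlapped the next in level.

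**Figure D1:**
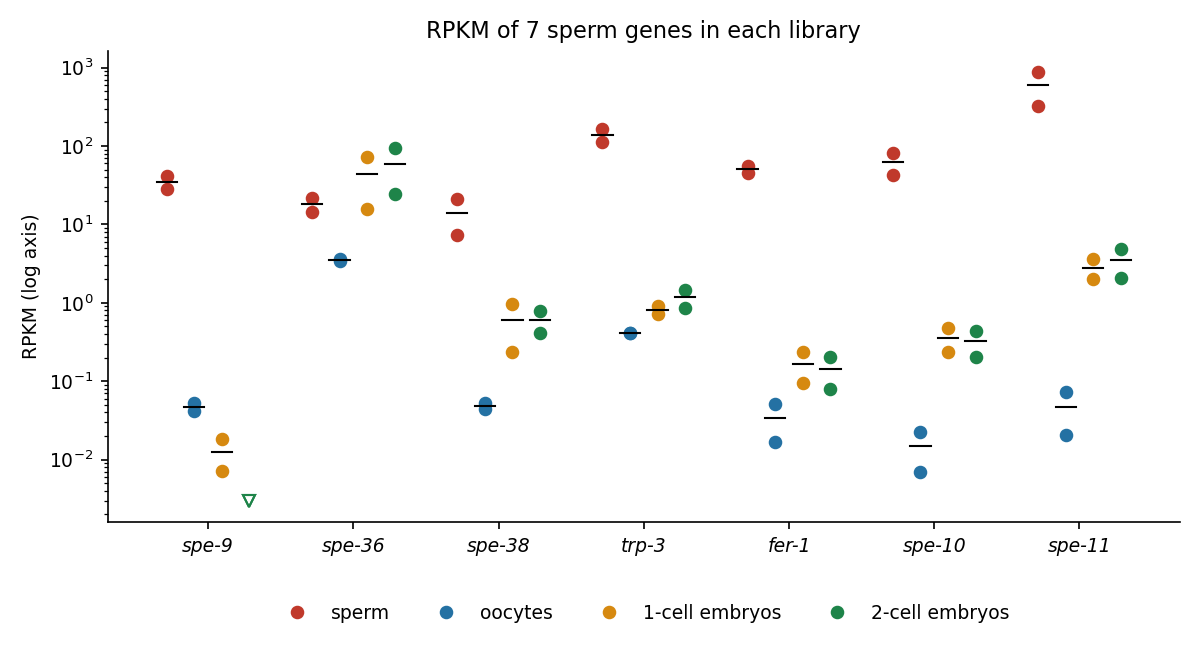
RPKM (log axis) of the 7 genes in the 8 libraries, with a point for each library, a bar for the group mean, and an open triangle at the foot of the axis for the 2-cell values of spe-9, which are listed at 0. For each gene except spe-36 both sperm points lie above all other points, while for spe-36 the 2-cell points (24.2 and 95.3 RPKM) lie above the sperm points (14.4 and 21.6 RPKM).

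The genes spe-9, spe-38, trp-3 and spe-36 act at the surface where sperm and oocyte meet. spe-9 encodes a membrane protein with EGF-like repeats on the sperm surface that is needed to fertilize the oocyte. Its transcript had 28.2 and 42.04 RPKM in sperm, 0.0420 and 0.0522 RPKM in oocytes, 0.0181 and 0.00708 RPKM in 1-cell embryos, and was listed at 0 in both 2-cell libraries. The sperm libraries stood far above all others, and the 1-cell values correspond to 0.747 and 0.508 reads at the rough depths, so to about 1 read or none. On the log2(RPKM + 1) scale, which understates changes of genes near 0, spe-9 was higher by 5.08 in sperm than in oocytes (SE 0.26, limma adjusted p = 1.96e-06) and by 5.13 in sperm than in 1-cell embryos (adjusted p = 2.44e-06). The ratio of mean RPKM was 2791 between sperm and 1-cell embryos.

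spe-38 encodes a multipass membrane protein that is needed at the sperm surface for fertilization and for the relocation of the channel TRP-3. Its transcript had the lowest mean of the set in sperm, with 7.24 and 20.9 RPKM, and had 0.0522 and 0.0445 RPKM in oocytes, 0.237 and 0.971 RPKM in 1-cell embryos, and 0.415 and 0.785 RPKM in 2-cell embryos. Both sperm libraries lay above the others, and both embryo groups lay above the oocytes. The log2 change was 3.68 in sperm against oocytes (SE 0.46, limma adjusted p = 0.000229) and 3.105 in sperm against 1-cell embryos (adjusted p = 0.000501). The rough read numbers behind spe-38 were 3.16 and 22.6 in the 1-cell libraries. Its annotated end overlaps that of impt-1 (Y52B11A.2) on the same strand in the WBcel235 annotation. impt-1 had 8.19 and 4.25 RPKM in sperm, 54.6 and 68.3 RPKM in oocytes, 274 and 143 RPKM in 1-cell embryos, and 137 and 83.8 RPKM in 2-cell embryos. The part of impt-1 reads in the embryo values of spe-38 was not tested.

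trp-3 encodes a calcium channel of the TRPC type that moves from the membranous organelles to the plasma membrane when sperm are activated. It was the second most abundant of the set, with 114 and 166 RPKM in sperm, 0.410 and 0.409 RPKM in oocytes, 0.910 and 0.720 RPKM in 1-cell embryos, and 1.48 and 0.869 RPKM in 2-cell embryos. The groups of sperm and of every other stage did not overlap. The log2 change was 6.62 in sperm against oocytes (SE 0.34, limma adjusted p = 1.76e-06) and 6.26 in sperm against 1-cell embryos (adjusted p = 2.8e-06).

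spe-36 encodes a secreted protein with an EGF-like motif that sperm need for fertilization. Its transcript had 14.4 and 21.6 RPKM in sperm, 3.46 and 3.59 RPKM in oocytes, 15.9 and 72.5 RPKM in 1-cell embryos, and 24.2 and 95.3 RPKM in 2-cell embryos. Oocytes were lowest, sperm and the 1-cell embryos overlapped, and both 2-cell libraries lay above both sperm libraries. The log2 difference was 2.05 in sperm against oocytes (SE 0.80, limma adjusted p = 0.0545) and -0.92 in sperm against 1-cell embryos (adjusted p = 0.33), neither of which passed. Against oocytes the call depended on the fit: it passed with only the compared groups (adjusted p = 0.0041), with a replicate block (0.0121), with a pseudocount of 0.1 (0.0328) and without any one of the embryo libraries (0.018 to 0.0279), and its adjusted p was 0.058 to 0.273 in the other settings. Without replicate 1 of the 1-cell embryos the difference from 1-cell embryos passed (-1.98, adjusted p = 0.0442), and without replicate 2 it was 0.14 (adjusted p = 0.874).

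The remaining genes act within the sperm or after its entry. fer-1, the founding gene of the ferlin family, encodes a membrane protein needed for the calcium-dependent fusion of the membranous organelles. It had 45.9 and 54.9 RPKM in sperm, 0.0511 and 0.0167 RPKM in oocytes, 0.234 and 0.0960 RPKM in 1-cell embryos, and 0.203 and 0.0803 RPKM in 2-cell embryos. Its sperm libraries were the closest to each other of the 7 genes, with a ratio of 1.20 between replicate 2 and replicate 1. The log2 change was 5.63 in sperm against oocytes (SE 0.25, limma adjusted p = 1.29e-06) and 5.46 in sperm against 1-cell embryos (adjusted p = 1.78e-06).

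spe-10 encodes a palmitoyltransferase of the DHHC family, named for a motif of its catalytic site, and is needed to form the membranous organelles. It had 42.6 and 81.4 RPKM in sperm, 0.0225 and 0.00693 RPKM in oocytes, 0.477 and 0.233 RPKM in 1-cell embryos, and 0.441 and 0.205 RPKM in 2-cell embryos. The embryo libraries lay between the other groups and overlapped with neither. The log2 change was 5.88 in sperm against oocytes (SE 0.35, limma adjusted p = 3.65e-06) and 5.47 in sperm against 1-cell embryos (adjusted p = 5.89e-06).

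spe-11 encodes a soluble protein that sperm bring into the egg and that the zygote needs for its eggshell and its first divisions. Its transcript ranked 272 of 21774 genes by mean level in sperm, with 324 and 876 RPKM, and had 0.0726 and 0.0203 RPKM in oocytes, 3.59 and 2.01 RPKM in 1-cell embryos, and 4.92 and 2.08 RPKM in 2-cell embryos. The embryo libraries lay above both oocyte libraries and far below sperm. The log2 change was 8.99 in sperm against oocytes (SE 0.55, limma adjusted p = 4.06e-06) and 7.17 in sperm against 1-cell embryos (adjusted p = 1.43e-05).

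Set together, 6 of the 7 genes were called higher in sperm than in oocytes, and the same 6 were called higher in sperm than in 1-cell embryos, where a call required a limma adjusted p under 0.05 and a log2 change of 1 or more in size. Over the 11935 genes tested, 36.7% were called higher and 24.6% lower in sperm than in oocytes, and 35.3% higher and 33.2% lower in sperm than in 1-cell embryos. All 7 genes passed the filter on low values, but 5 of them would not have passed without the sperm libraries, so a difference from sperm was built into their testing and the count supports nothing. The median log2 change of the 7 genes was 5.63 against oocytes and 5.46 against 1-cell embryos, beside 0.16 and -0.18 over all genes tested. Over all genes, 4375 were called higher and 2938 lower in sperm than in oocytes, a split that was 2807 and 4702 with quantile normalization. In sperm against 1-cell embryos it was 4212 higher and 3960 lower, and 3094 and 4632 with quantile normalization. The 2 comparisons share the sperm libraries. In all 7 genes sperm replicate 2 was higher than replicate 1, by 1.20-fold for fer-1 to 2.89-fold for spe-38. Over 5809 genes that reached 10 RPKM in each sperm library the median ratio was 0.886, with deciles of 0.484 and 2.10. Only spe-38 and spe-11 (2.70-fold) lay above the upper decile. The summed level of the 12 oocyte markers went the other way, with 1042 RPKM in sperm replicate 1 and 252 RPKM in sperm replicate 2, beside 22980 and 22180 RPKM in oocytes. The part of oocyte RNA in the sperm values was not tested.

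**Figure D2:**
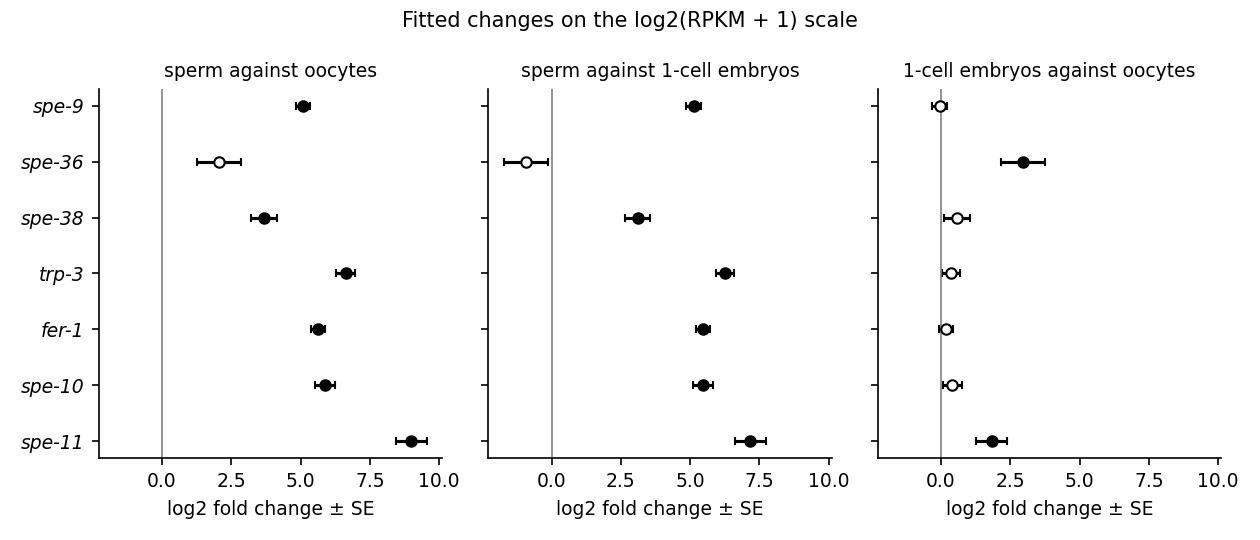
Log2 fold changes with SE from the limma fit on log2(RPKM + 1) for the 7 genes in 3 comparisons, with filled points for genes called at adjusted p under 0.05 and absolute log2 of at least 1. In both sperm comparisons the open point is spe-36 (2.05 and -0.92), and in 1-cell embryos against oocytes the filled points are spe-36 (2.96) and spe-11 (1.83).

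Other genes of sperm function were also mostly higher in sperm. The genes spe-42, spe-49 and spe-51, all needed on the sperm side of fertilization, were each called higher in sperm than in oocytes, with log2 changes of 4.39, 4.27 and 3.95, beside the 36.7% of all genes called higher. They were also called higher in sperm than in 1-cell embryos, and none of them exceeded 1 RPKM in any oocyte or embryo library. They thus passed the filter on low values only through the sperm libraries, and their calls support nothing. Of 25 tested genes of the membranous organelles and of sperm activation, 22 were higher and 1 lower in sperm than in oocytes, and 20 were higher and 1 lower in sperm than in 1-cell embryos. All 25 reached 1 RPKM in both sperm libraries, but 8 to 13 of them did so in any one oocyte or embryo library, so many of these calls were also built in by the filter. The phosphatase genes gsp-3 and gsp-4, spe-18 and the myosin VI gene spe-15 had the highest levels among those called. Their log2 changes in sperm against oocytes were 9.87, 9.88, 8.76 and 6.98. The lower gene was the zinc transporter gene zipt-7.1, with 64.9 and 43 RPKM in sperm and 158 and 155 RPKM in oocytes (log2 -1.55, limma adjusted p = 0.0073), named here after its value was seen. spe-44 lost its call in sperm against oocytes with libraries scaled to a common sum (log2 1.10), try-5 with quantile normalization (0.43) and spe-29 with the length trend removed (0.33). The call of zipt-7.1 against 1-cell embryos ended with quantile normalization (log2 -1.01).

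The protein families of spe-10 and trp-3 held genes that were higher and genes that were lower in sperm. Of the 11 other DHHC genes tested, 2 were higher and 7 lower in sperm than in oocytes, beside 36.7% and 24.6% of all genes. In sperm against 1-cell embryos 2 were higher and 6 lower, beside 35.3% and 33.2% of all genes. In sperm against oocytes 8 were lower with a common sum, with quantile normalization and with median-of-ratios scaling. dhhc-12 was higher, with 52.9 and 83.8 RPKM in sperm and 0.181 and 0.200 RPKM in oocytes, and so was dhhc-13, named after its values were seen, with 37.2 and 62.7 RPKM in sperm and 0.0172 and 0.00838 RPKM in oocytes. Their sperm levels overlapped with those of spe-10. dhhc-13 passed the filter on low values only through the sperm libraries, so its call was built in. Among the lower genes were dhhc-7 (log2 -1.49), dhhc-3 (-2.13) and dhhc-8 (-2.88). Of 15 other TRP channel genes, 4 passed the filter on low values. Of these, 2 were higher and 1 lower in sperm than in oocytes, beside the same 36.7% and 24.6% of all genes. Among them, ocr-2 was higher in sperm than in oocytes, with 2.58 and 7.99 RPKM in sperm and 0.0194 and 0.0246 RPKM in oocytes, and so was gtl-1 (log2 1.47), whose log2 change was 0.38 and not called with quantile normalization. Both passed the filter only through the sperm libraries. cup-5, which encodes a lysosomal channel of the mucolipin type, was lower (log2 -2.03), with 11.6 and 7.78 RPKM in sperm and 38.1 and 45.7 RPKM in oocytes. Both sperm libraries of trp-3, with 114 and 166 RPKM, lay above those of every other channel gene of the list.

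**Figure D3:**
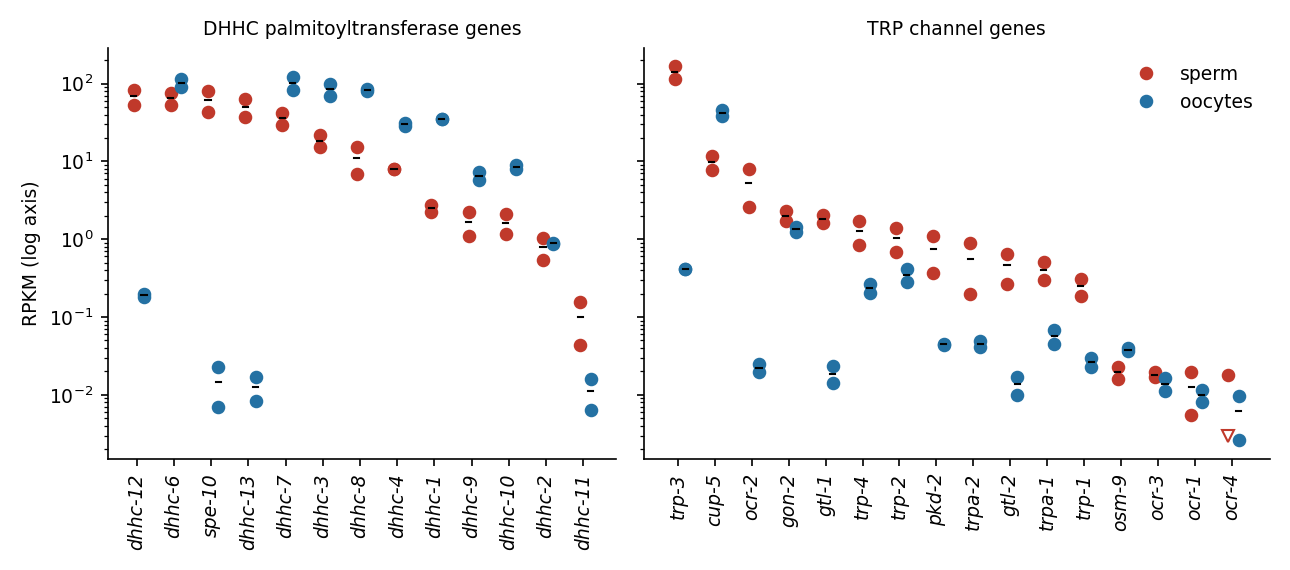
RPKM (log axis) of the DHHC palmitoyltransferase genes (left) and TRP channel genes (right) in the 2 sperm and the 2 oocyte libraries, ordered by mean sperm level, with a dash for the mean of each group and an open triangle for a value listed at 0. spe-10, dhhc-12 and dhhc-13 have sperm points of 37.2 to 83.8 RPKM with oocyte points at or under 0.200 RPKM, and trp-3 stands above every other TRP channel gene in sperm.

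Between 1-cell embryos and oocytes lies fertilization, at which the sperm adds its content to that of the egg. Of the 7 genes, 2 were called higher in 1-cell embryos, spe-36 and spe-11, and none was called lower, beside 17% of all genes called higher and 5.92% called lower. The log2 change of spe-36 was 2.96 (SE 0.80, limma adjusted p = 0.0338) and that of spe-11 was 1.83 (SE 0.55, adjusted p = 0.0486). The other log2 differences did not pass: 0.57 for spe-38 (adjusted p = 0.423), 0.41 for spe-10 (0.46), 0.36 for trp-3 (0.497), 0.17 for fer-1 (0.717) and -0.05 for spe-9 (0.975). The median of the 7 genes, 0.41, lay near that of all genes tested, 0.35. These calls depended on the settings. Over 17 alternative settings, each library left out among them, the log2 difference ran from 1.90 to 4.02 for spe-36 and from 0.621 to 4.275 for spe-11. With libraries scaled to a common sum the adjusted p was 0.0575 for spe-36 and 0.0655 for spe-11. Over all genes, 2033 were called higher and 707 lower, a split that was 947 and 960 with a common sum, 554 and 884 with quantile normalization and 518 and 1350 with median-of-ratios scaling.

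In 2-cell embryos the same 2 genes were called higher than in oocytes, spe-36 by 3.45 (SE 0.80, limma adjusted p = 0.024) and spe-11 by 2.03 (SE 0.55, adjusted p = 0.0372), beside 16.4% of all genes called higher and 5.17% called lower. The 2 comparisons share the oocyte libraries. The calls in 2-cell embryos depended on the settings too, with log2 differences from 2.48 to 4.41 for spe-36 and from 0.732 to 4.52 for spe-11. Over all genes, 1960 were called higher and 617 lower, and 993 and 744 with a common sum, 457 and 828 with quantile normalization and 362 and 1281 with median-of-ratios scaling. Between 2-cell and 1-cell embryos none of the 7 genes was called by limma, and none had an unadjusted p under 0.05, where 0.0168% of all genes were called higher, none was called lower and 78 genes had an unadjusted p under 0.05. The log2 differences of the members lay between -0.03 for spe-10 and 0.48 for spe-36, with SE from 0.25 to 0.80. Differences within such errors were not detectable with 2 libraries a group.

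The share of the sperm level that was found in 1-cell embryos was lowest for spe-9 and highest for spe-36. In the order fer-1, spe-11, spe-10 and trp-3, each gene overlapped the next between 1-cell replicates. Both replicate shares of trp-3 (0.65% and 0.514%) lay above both of fer-1 (0.463% and 0.19%). As a percentage of the sperm mean RPKM, the 1-cell mean was 0.0358% for spe-9, 0.327% for fer-1, 0.467% for spe-11, 0.573% for spe-10, 0.582% for trp-3, 4.29% for spe-38 and 245.7% for spe-36. Against the same sperm mean, replicates 1 and 2 of the 1-cell embryos gave 88.2% and 403.2% for spe-36, so below and above the sperm level, and 1.68% and 6.91% for spe-38. For comparison, 1632 other genes reached 10 RPKM in each sperm library while staying under 1 RPKM in each oocyte library, a set defined after the values were seen. Their median share was 0.325%, with quartiles of 0.0908% and 0.90%, and 139 of them were at 0 in both 1-cell libraries. fer-1, spe-11, spe-10 and trp-3 lay between the quartiles and spe-9 below the lower one, with 14.6% of the set lower than it. spe-38 and spe-36 are outside the definition of that set, spe-38 because of its 7.24 RPKM in sperm replicate 1 and spe-36 because of its level in oocytes. In 2-cell embryos the shares were 0 for spe-9, 0.281% for fer-1, 0.584% for spe-11, 0.521% for spe-10, 0.838% for trp-3, 4.27% for spe-38 and 332% for spe-36.

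**Figure D4:**
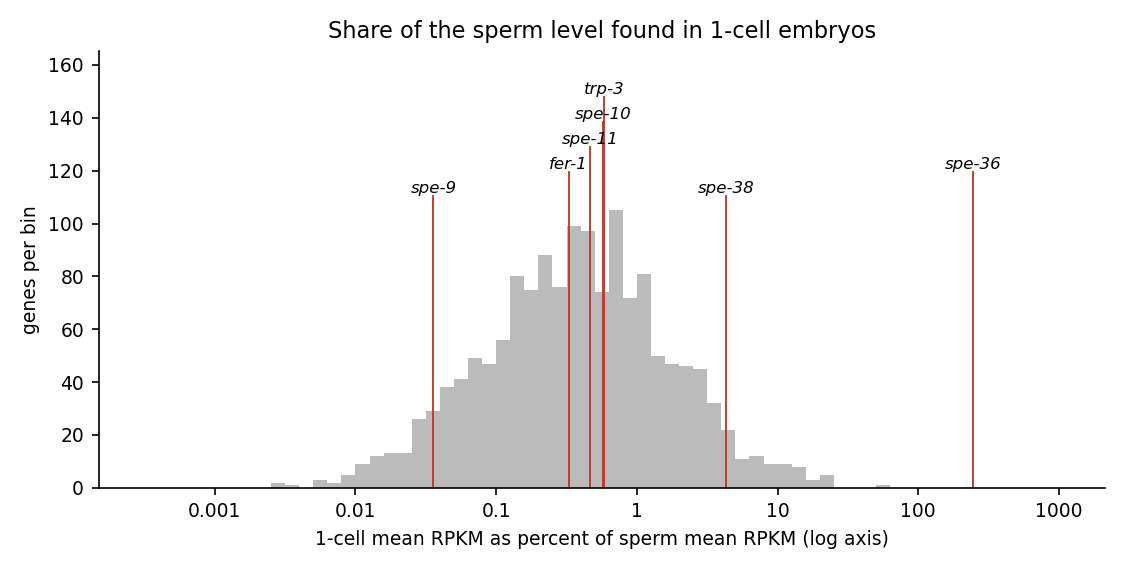
Mean RPKM in 1-cell embryos as a percentage of mean RPKM in sperm (log axis) for 1632 genes that reached 10 RPKM in each sperm library and stayed under 1 RPKM in each oocyte library (grey, genes per bin, without the 139 genes at 0), with red lines for the 7 genes. fer-1, spe-11, spe-10 and trp-3 stand in the bulk of the distribution, spe-9 to its left at 0.0358% and spe-36 to its right at 245.7%.

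Markers of sperm were measured in the same embryo libraries. The summed level of 32 major sperm protein, phosphatase and related sperm genes was 1.78e+05 RPKM in both sperm libraries, 26.3 and 2.31 RPKM in oocytes, 95.7 and 94.9 RPKM in 1-cell embryos, and 130.7 and 61.8 RPKM in 2-cell embryos. A single gene, ssp-16, named after its values were seen, held 45.3 and 40.4 RPKM of the sums in 1-cell embryos and 37.7 and 16.3 RPKM of those in 2-cell embryos. In 1-cell embryos 1 of the 32 was at 0 in each library and 19 reached 1 RPKM. Their median share of the sperm level was 0.0244% in 1-cell embryos, close to that of spe-9 and below those of the other members. Major sperm protein genes are near copies of each other, and the value of any single one is uncertain. The part of sperm RNA in the embryo values of the 7 genes was not tested.

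The embryo libraries also split by replicate, and the genes did so in opposite directions. In 1-cell embryos replicate 1 was higher than replicate 2 for fer-1 (2.44-fold), spe-10 (2.05-fold), spe-11 (1.79-fold) and trp-3 (1.26-fold). Replicate 2 was higher for spe-36 (4.57-fold) and spe-38 (4.11-fold). The values of spe-9, at about 1 read or none, allow no such comparison. In 2-cell embryos the same replicate was the higher one for these 6 genes, with replicate 2 above replicate 1 by 3.93-fold for spe-36 and by 1.89-fold for spe-38. Over all genes tested, the replicate differences of the 2 embryo stages had a correlation of 0.877, so this repeat is not particular to these genes. Among 5118 genes with at least 10 RPKM in both 1-cell libraries, 0.703% had a higher ratio of replicate 2 to replicate 1 than spe-36. The median ratio was 0.95, with deciles of 0.439 and 2.24. The ratios of spe-10, spe-11 and trp-3 lay between these deciles, that of fer-1 (0.411) below and those of spe-36 and spe-38 above. For 2-cell embryos the deciles were 0.513 and 1.91, with spe-38 and trp-3 between them, spe-36 above and fer-1, spe-10 and spe-11 below. In oocytes the ratio for spe-36 was 1.04.

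In the WBcel235 annotation spe-36 overlaps neighbours at both of its ends, F40F11.3 on the same strand and F12F6.1 on the opposite strand, and the protocol describes no step that marks the strand of the RNA. F40F11.3 had 14.4 and 13.2 RPKM in sperm, 39.8 and 47.2 RPKM in oocytes, 214 and 149 RPKM in 1-cell embryos, and 213 and 149 RPKM in 2-cell embryos. All 4 embryo libraries lay above the sperm and oocyte libraries, and in both embryo groups replicate 2 was lower for F40F11.3 and higher for spe-36. F12F6.1 had 44.9 and 27.5 RPKM in sperm, 38.9 and 35.5 RPKM in oocytes, 47.5 and 56.5 RPKM in 1-cell embryos, and 50.95 and 70.2 RPKM in 2-cell embryos, with less spread between stages. In both embryo groups its replicate 2 was the higher one, as for spe-36 but by far less. The part of reads from either neighbour in the spe-36 values was not tested. spe-9 overlaps C17D12.5 on the opposite strand, which was also a sperm transcript, with 81.6 and 83.8 RPKM in sperm and 0.0775 and 0.0294 RPKM in oocytes.

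**Figure D5:**
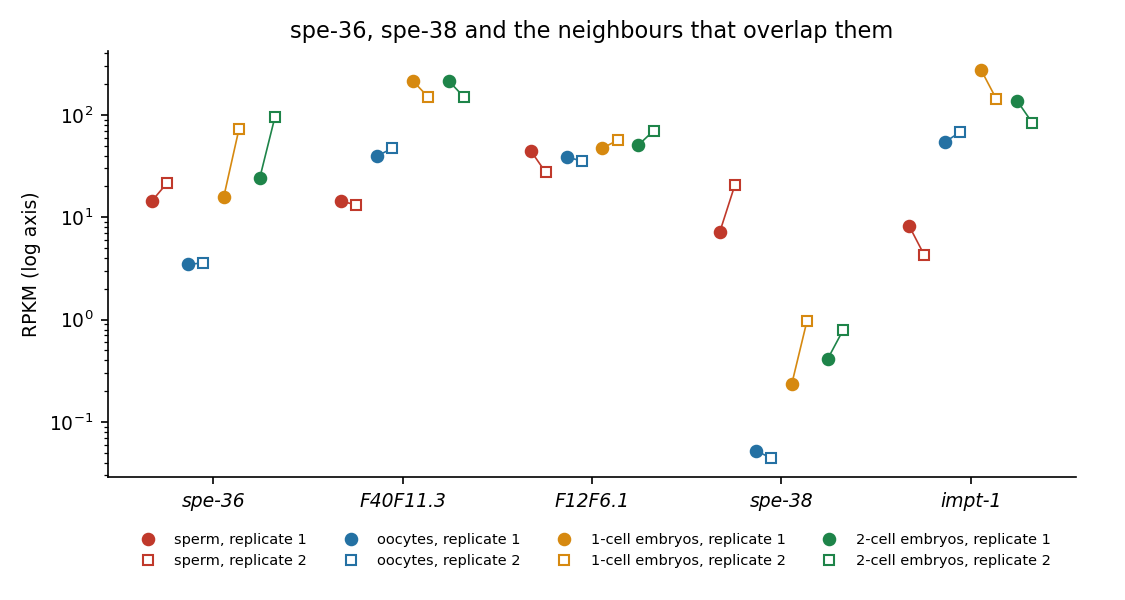
RPKM (log axis) of spe-36, of its overlapping neighbours F40F11.3 and F12F6.1, of spe-38 and of its neighbour impt-1 in the 8 libraries, with filled circles for replicate 1, open squares for replicate 2 and a line joining both. In the embryo libraries the lines of spe-36, F12F6.1 and spe-38 point up to replicate 2, least so for F12F6.1, and those of F40F11.3 and impt-1 point down.

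Likeness of pattern was measured as the distance between genes in log2(RPKM + 1) over the 8 libraries, where small values mean a like level in every library. Among the members, fer-1 and spe-10 were closest (0.72), followed by spe-9 and fer-1 (0.89), and spe-36 was at 10.1 or more from each of the others. The 2 nearest genes outside the set were F43C11.2 (0.20) and csp-2 (0.23) for spe-9, F42H11.1 (0.21) and F35C11.3 (0.23) for spe-10, and tag-191 (0.26) and spc-2 (0.28) for fer-1. They were try-16 (0.48) and F01D5.8 (0.63) for trp-3, F44F4.3 (0.53) and C55A6.7 (0.63) for spe-38, and T28H11.7 (0.78) and ZC477.7 (0.88) for spe-11. The nearest to spe-36 were F55H12.2 (2.11) and, at 2.12, another row of the table. The number of genes within a distance of 1 was 264 for spe-9, 249 for fer-1, 269 for spe-10, 43 for trp-3, 34 for spe-38, 3 for spe-11 and 0 for spe-36.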

How the data were processed

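The authors deposited RPKM values, 1 column per library, and all 8 columns were matched to samples by title. BWA, a read aligner, is named in the submitters' processing notes. Its version and the genome build, gene models, counter and total behind RPKM are not given in the sources used here, so no positions are printed. Gene symbols, overlaps and transcript lengths came from WBcel235, which matched 18744 of 21774 names.

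RPKM were used as deposited. The test took in 11935 genes that reached 1 RPKM in 2 or more libraries, on log2(RPKM + 1) with limma 3.58.1 in R 4.3.3, in a model of all 4 groups with a variance trend, two-sided, with Benjamini-Hochberg adjustment over all genes of each of 5 comparisons. A gene was called at adjusted p under 0.05 and an absolute log2 change of at least 1. Shares and distances are descriptions without a test. Rough reads are RPKM times annotated transcript length times rough depth. With depth only rough, no counting intervals were computed.

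The members and gene lists were chosen with earlier results of these data known. Named outside the members are the 2 nearest genes of each member, and up to 4 called genes per list and comparison by level, of which a gene is not reported here. Alternatives were pseudocounts of 0.1 and 5, no filter, 3 other scalings, fits of the compared groups, a replicate block, removal of the trend with transcript length (a loess fit per library over genes averaging 10 RPKM or more) and each library left out. No sequences of the genes are printed, because none were in the tables used here.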

Additional observations from a re-analysis of the deposited data

How the results depend on the processing

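The genes spe-9, spe-38, trp-3, fer-1 and spe-10 passed the filter on low values only through the sperm libraries, so their calls were built in. The calls of these genes and of spe-11 as higher in sperm, against oocytes and against 1-cell embryos, held under all 17 planned settings. The largest adjusted p among them was 0.0271, for spe-38 against 1-cell embryos. With each library left out, 6 to 7 members were called in both sperm comparisons, 0 to 2 in 1-cell and in 2-cell embryos against oocytes, and 0 in 2-cell against 1-cell embryos. Over all genes these fits called 6003 to 7515 in sperm against oocytes, 7156 to 8232 in sperm against 1-cell embryos, 6 to 2655 in 1-cell embryos against oocytes, 7 to 2970 in 2-cell embryos against oocytes and 0 to 2 in 2-cell against 1-cell embryos. The low counts in the embryo comparisons with oocytes are those without an oocyte replicate. In those fits, as in all others, the groups share a single estimate of spread for each gene, to which a lone library adds nothing. Why the counts fell was not tested.

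Of the 2 members called in 1-cell embryos against oocytes, 0 were called with a pseudocount of 5, with no filter, with a common sum and with median-of-ratios scaling, and 1 with quantile normalization and with only the compared groups. In 2-cell embryos against oocytes 0 were called with a pseudocount of 5, with no filter and with median-of-ratios scaling, and 1 with quantile normalization. Other members passed only with a pseudocount of 0.1 or with the length trend removed. These were spe-10 in 1-cell and in 2-cell embryos, fer-1 in 1-cell embryos and trp-3 in 2-cell embryos, each against oocytes. The largest log2 differences over the settings were 1.94 and 1.83 for spe-10, 1.28 for fer-1 and 1.28 for trp-3, at embryo levels at or under 1.48 RPKM. Over all genes, the 2740 calls in 1-cell embryos against oocytes were 1370 with no filter and 1438 with quantile normalization. The 2577 calls in 2-cell embryos against oocytes were 1177 with no filter, 1285 with quantile normalization and 1643 with median-of-ratios scaling. The 2 calls in 2-cell against 1-cell embryos were 0 with a pseudocount of 5, with quantile normalization, with median-of-ratios scaling and with only the compared groups, 1 with no filter, 6 with a common sum and 5 with the length trend removed. The causes were not tested. The median log2 change of all genes in sperm against oocytes was 0.16 as deposited, -0.22 with a common sum, -0.65 with quantile normalization and -0.12 with median-of-ratios scaling. In 1-cell embryos against oocytes it was 0.35, 0.15, 0.05 and 0.03.

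Uncalled differences that changed sign were those of trp-3 with quantile normalization (-0.26 in 1-cell and -0.0731 in 2-cell embryos against oocytes), of spe-38 in 2-cell against 1-cell embryos with quantile normalization (-0.0099) and median-of-ratios scaling (-0.0184), and, with the length trend removed, of spe-9 (0.47 and 0.36) and spe-38 (-0.19 and -0.0200) in 1-cell and 2-cell embryos against oocytes. With single libraries left out, the log2 difference in 2-cell against 1-cell embryos ran from -0.58 to 1.55 for spe-36, -0.31 to 0.36 for spe-38, -0.11 to 0.0571 for fer-1, -0.16 to 0.0958 for spe-10 and -0.27 to 0.67 for spe-11, and in sperm against 1-cell embryos from -1.98 to 0.14 for spe-36. A replicate block left the called members at 6 in sperm against 1-cell embryos and at 2 in both embryo comparisons with oocytes, and called 7 in sperm against oocytes, where spe-36 passed (adjusted p = 0.0121). Same-numbered libraries deviated together in 1-cell and 2-cell embryos (correlation across genes 0.877) and not in the other pairs of groups (-0.17 to 0.0905), and no label ties the numbers to a shared culture. As alternatives chosen after seeing the data, a replicate block with the oocyte numbers crossed gave 3579 calls in 1-cell embryos against oocytes, and a replicate block with only the compared groups gave 0 in 2-cell against 1-cell embryos.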
